A study of Homo sapiens with 9 samples.

Results

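This report describes the first 3 days of EZH2 inhibition in TYUC-1, a human neuroendocrine carcinoma line from the esophagus, gene by gene. The genes followed are those with at least 10 estimated counts in 3 or more of the 6 libraries taken on day 0 and day 3, which were 14632 of the 35762 gene symbols in the table. The study sequenced poly-A selected RNA from TYUC-1 cells in suspension culture after 0, 3 or 6 days with EPZ-6438 (tazemetostat), an inhibitor of the catalytic site of EZH2, and called its 3 libraries a day biological replicates. The labels do not say whether these came from separate cultures, so p-values measure the spread between these libraries.

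The day 0 group is TYUC-1 at 0 days and the day 3 group is TYUC-1 at 3 days, with 3 libraries each and no engineered allele in either. All 6 carry EPZ-6438 as their treatment label, and the protocol gives 2 uM EPZ-6438 or DMSO, the solvent, without saying which the day 0 cells received. Solvent-treated cells held for 3 days were not analysed here, so exposure to the compound and time in culture cannot be told apart. All libraries come from 1 cell line. Levels are CPM, counts as a share of a TMM-scaled library size, and are not corrected for transcript length. Errors are SD over 3 libraries. A gene was called higher or lower where edgeR's quasi-likelihood test, adjusted by Benjamini-Hochberg over all 14632 genes, gave a p under 0.05.

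EZH2 is the enzyme of Polycomb repressive complex PRC2, which it forms with SUZ12 and EED, and it places methyl groups on lysine 27 of histone H3. Genes that carry this mark, many of them developmental regulators and genes of other lineages, are held at low levels. An inhibitor of the enzyme leaves the protein in place but stops new methylation, so the mark is lost mainly as cells divide and dilute it. The study's title concerns p63, the master regulator of squamous epithelium encoded by TP63, and a change from squamous to neuroendocrine identity.

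The 6 libraries held 21638874 to 31235055 counts, so that 3 counts corresponded to 0.0963 to 0.138 CPM. Day 0 replicate 2 stood apart from the other day 0 libraries. Its counts differed from theirs by a chi-square of 55.8 and 47.8 per gene, against 4.93 between the other two and 3.53 to 5.52 among day 3 libraries. It held more short transcripts: its median log2 ratio to the other day 0 libraries ran from 0.41 for genes with a longest transcript under 1000 bases to -0.22 at 8000 bases or more. List counts that move by over 1.5 times and by 3 genes or more when 1 library is left out are given with their range over the 6 such fits. In each of these ranges the highest count came without day 0 replicate 2 and the lowest without a day 3 library, ties included.

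The change between the days also ran with the GC content of the transcript. Among genes of at least 5 CPM, 2.88% were called higher and 40.4% lower where the longest transcript had under 40% GC, and 42.9% were called higher and 1.78% lower at 60% GC or more. The median log2 fold change went from -0.25 to 0.25 across these bins, and from -0.18 to 0.21 without day 0 replicate 2. All 3 day 3 libraries lay on one side of the gene mean and the day 0 libraries on the other, at both ends of the range. Each comparison was therefore refitted with a smooth trend on GC and length removed from each library, a choice made after the trend was seen, and list counts from that fit are given where they move by over 1.5 times and by 3 genes or more. Whether the trend is a property of the libraries or of the genes that respond was not tested.

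**Figure D1:**
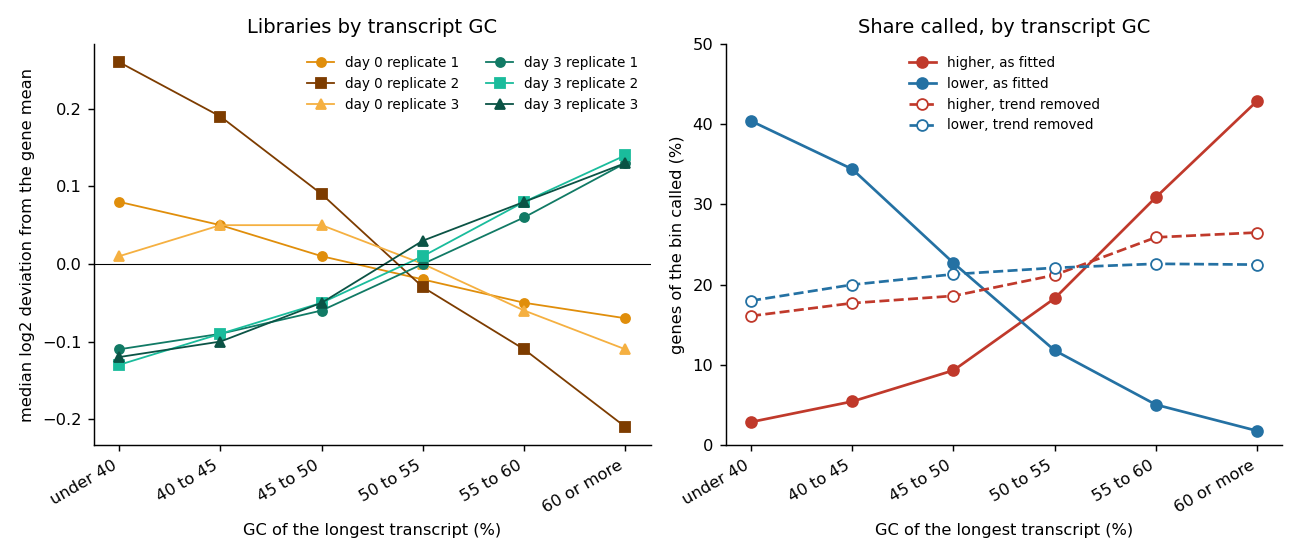
Left, the median log2 deviation of each library from the gene mean over genes of at least 5 CPM, by GC of the longest transcript (GENCODE 29), one line per library. Right, the percentage of genes of each GC bin called higher (red) or lower (blue), as fitted (filled) and after removal of the GC and length trend (open); the share called higher climbs from 2.88% to 42.9% as fitted and from 16.1% to 26.5% after it.

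The response was wide and lopsided: rises were large and mostly in weakly expressed genes, and falls were small and mostly in strongly expressed ones. Of the 14632 genes, 5304 (36.2%) were called, 2926 (20%) higher and 2378 (16.3%) lower. At least 2-fold rises numbered 1131 (7.73%) and at least 2-fold falls 47 (0.321%). Rises of at least 4-fold were seen for 402 genes and of at least 8-fold for 174, while 5 genes fell by 4-fold or more. All but 3 called genes (5301) kept day 0 and day 3 libraries apart without overlap, as did 54.1% of everything tested. The median log2 fold change was 0.77 among genes called higher and -0.39 among those called lower, against 0.00 over all genes tested. In bulk RNA a lower level per cell and fewer cells that express a gene cannot be told apart.

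Expression level separated the directions. Below a mean of 1 CPM, 25.4% of genes were called higher and 1.49% lower. From 5 to 20 CPM the shares were 29.4% and 8.42%, and from 100 to 500 CPM they had crossed to 6.88% and 33.7%. At 500 CPM or more, 1.55% were higher and 29.4% lower. The 1131 genes that rose at least 2-fold had a median of 1.55 CPM and together went from 2990 to 8100 CPM, whereas the called falls had a median of 63.0 CPM, made up 295000 CPM of the day 0 libraries and lost 73200 CPM.

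**Figure D2:**
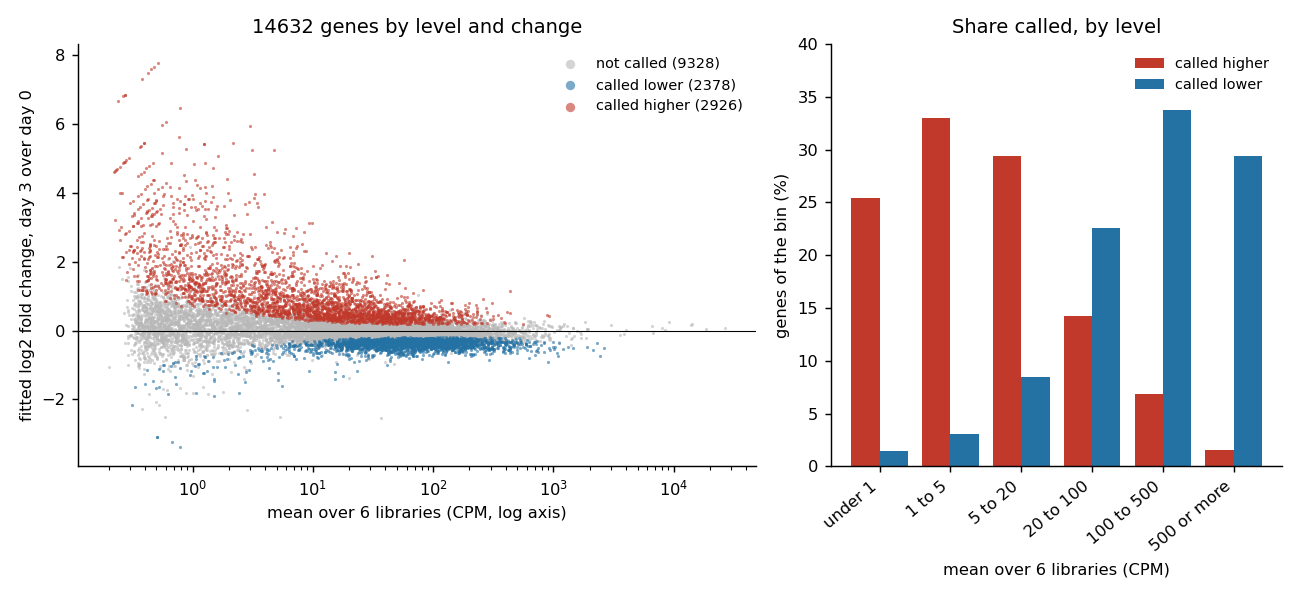
Left, the fitted log2 fold change of each of the 14632 genes against its mean CPM over the 6 libraries (log axis), coloured by call. Right, the percentage of genes in each range of mean CPM called higher (red) or lower (blue); the higher share drops from 33.0% between 1 and 5 CPM to 1.55% at 500 CPM or more.

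Without day 0 replicate 2 the calls numbered 4087 (27.9%) higher and 3822 (26.1%) lower, and 99.1% of the higher and 99.4% of the lower calls were among them. With the GC and length trend removed there were 3373 (23.2%) higher and 2341 (16.1%) lower calls, which held 83.3% of the 2926 rises and 61.7% of the 2378 falls but 97.4% of the 1131 rises of at least 2-fold. Library size alone as the scaling, with no correction for composition, moved the share of calls that were higher from 55.2% to 66.6%. The 176 genes that met the entry rule with no count to spare had a median of 0.35 CPM and 30 calls, and the 202 genes that missed it by 1 count had a median of 0.323 CPM.

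EZH2 itself changed little. It stood at 189, 194 and 186 CPM in the day 0 replicates and at 164, 166 and 162 CPM on day 3, a log2 fold change of -0.21 ± 0.061 (SE, n = 3 a day, edgeR adjusted p = 0.0314). The days did not overlap, but the call was lost in 12 of 19 alternative fits, and after the GC and length trend was removed the log2 fold change was -0.005 (adjusted p = 0.947). A transcript level does not measure whether the enzyme was inhibited.

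The partners of EZH2 fell more clearly. SUZ12, the scaffold of the complex, was at 170, 187 and 152 CPM on day 0 and at 127, 130 and 129 CPM on day 3, and EED, the subunit that reads the methyl mark, went from 41.4 ± 4.97 to 29 ± 0.829 CPM (edgeR adjusted p = 0.00888 and 0.00514). All 3 day 3 libraries lay below the lowest day 0 library for both genes. Over the 19 alternative fits the log2 fold change ran from -0.472 to -0.154 for SUZ12, against -0.40 as fitted. For EED it ran from -0.57 to -0.219, against -0.52. EED kept its call in all 19 and SUZ12 in 18, losing it in the test against a 1.2-fold change. AEBP2, an accessory subunit, fell from 188 ± 10.5 to 146 ± 2.95 CPM, while PHF1, another accessory subunit, rose from 11.3 ± 0.796 to 15.9 ± 1.83 CPM. Of the 15 PRC2 genes tested 2 were called higher and 6 lower, but 4 higher and 3 lower after the GC and length trend was removed. The falls ranged from 3 to 7 with 1 library left out.

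EZHIP, a germline protein that inhibits PRC2, made the largest move on that list. It went from 0.0963, 0.0836 and 0.185 CPM on day 0 to 1.43, 1.58 and 1.71 CPM on day 3. Pooled over libraries that was 9 counts against 127, a ratio of 13.4 (exact 95% interval 6.82 to 29.9, counting error only). EZH1, the paralogous enzyme, was at 37.9 ± 3.8 and 43.2 ± 1.07 CPM and JARID2, which helps recruit PRC2, at 32.7 ± 4.01 and 38.3 ± 2.16 CPM; neither was called (edgeR adjusted p = 0.123 and 0.118), and both were called higher with the trend removed.

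Among PRC1 genes, whose products bind the methylated histone and ubiquitinate H2A, 6 of 29 rose and 5 fell. CBX7, a reader of the mark, rose from 12.2, 12 and 14 CPM to 23.9, 21.9 and 20.5 CPM (log2 fold change 0.80 ± 0.098 SE, edgeR adjusted p = 0.000957). AUTS2, found in an activating form of PRC1, rose from 79.1 ± 5.18 to 105 ± 2.37 CPM. PCGF6, which defines a germline-repressing form, fell from 13.7 ± 2.31 to 8.68 ± 0.257 CPM, and the deubiquitinase USP7 fell from 342 ± 9.59 to 267 ± 2.2 CPM. The list had no common direction: with 1 library left out rises ranged from 2 to 10 and falls from 2 to 7, and 6 rose and 8 fell after the GC and length trend was removed.

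Genes that oppose Polycomb gave a count of falls that depended on the fit. Of 44 trithorax, H3K27 demethylase and SWI/SNF remodeller genes, 2 rose and 10 fell, a share of falls near the 16.3% of all genes. The falls ranged from 4, without any day 3 library, to 29, without day 0 replicate 2, and numbered 19 after the GC and length trend was removed. WDR5, a core part of the H3K4 methyltransferases, fell from 100 ± 5.72 to 78.3 ± 3.14 CPM, and BRD7, a SWI/SNF bromodomain protein, from 197 ± 14.5 to 147 ± 3.57 CPM. SMARCD3, a SWI/SNF subunit used in muscle and nerve, went the other way: it stood at 12.3, 13.3 and 12.6 CPM on day 0 and at 28.5, 29.1 and 29.6 CPM on day 3 (log2 fold change 1.19 ± 0.073 SE, edgeR adjusted p = 9.07e-05). Of 16 DNA methylation genes 2 rose, DNMT3B among them at 48.4 ± 1.47 to 61.6 ± 0.765 CPM, and 4 fell, including TET2 at 63.3 ± 8.93 to 45.2 ± 1.41 CPM. The falls ranged from 3 to 8 with 1 library left out and numbered 7 after the GC and length trend was removed.

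The 12 largest rises among genes averaging 5 CPM or more were NES, SPTB, TNNT1, GALNT6, CACNA1I, MFGE8, MUC5B, PIANP, STC1, HES2, ATP1B2 and OLFM2. NES, the neural stem cell intermediate filament nestin, was at 1.86, 1.51 and 2.40 CPM on day 0 and at 17.0, 15.3 and 17.9 CPM on day 3 (log2 fold change 3.12 ± 0.16 SE, edgeR adjusted p = 5.9e-05). MFGE8, a secreted bridge to apoptotic cells, was at 1.51, 1.38 and 1.25 CPM and then at 9.93, 9.70 and 10.4 CPM. In both genes the libraries of a day lay close together and far from the other day.

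SPTB, the erythroid and muscle form of beta-spectrin, varied more: 1.38, 1.97 and 2.86 CPM on day 0 and 10.5, 22.3 and 19.8 CPM on day 3, with replicate 1 low on both days. MUC5B, a gel-forming airway mucin, rose from 1.74 ± 0.405 to 11.8 ± 1.07 CPM, and GALNT6, which starts O-linked sugar chains on mucins, from 1.32 ± 0.197 to 10.3 ± 1.02 CPM. STC1, a secreted glycoprotein, rose from 2.29 ± 0.471 to 12.3 ± 1.42 CPM. The set joins neural, muscle, glandular and channel genes, and all 12 kept their call in every alternative fit.

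**Figure D3:**
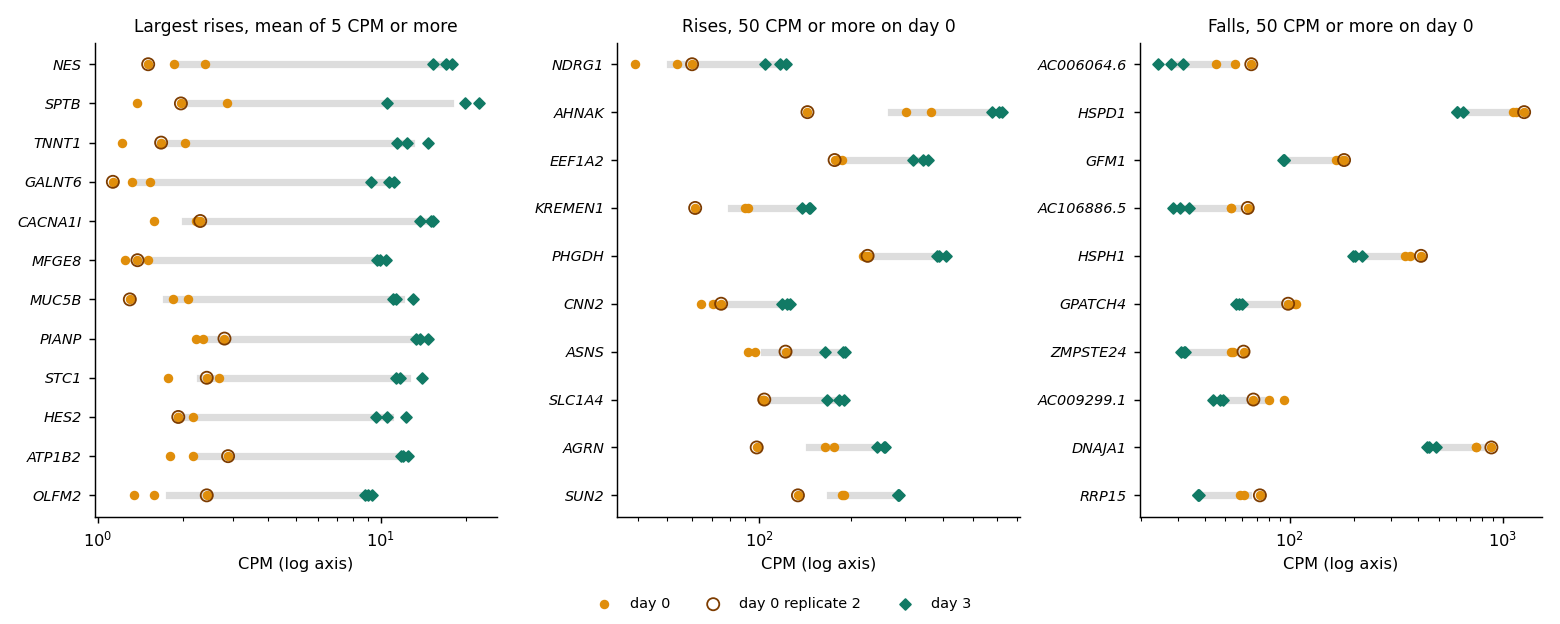
CPM (log axis) of single libraries for the 12 largest rises among genes averaging 5 CPM or more (left) and for 10 of the largest rises (middle) and the 10 largest falls (right) from a day 0 level of at least 50 CPM. Circles are day 0 libraries, with replicate 2 ringed, diamonds are day 3 libraries, and grey bars join the means; AHNAK and AGRN are lowest in the ringed library.

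Large rises often sat next to each other on the chromosome. Of the 1108 genes that rose at least 2-fold and could be placed on RefSeq's GRCh38.p14, 317 (28.6%) had such a gene as their nearest tested neighbour on either side, against 14.9% of all 14121 placed genes. One of the 2 longest runs, picked for its length after values were seen, was TNNT1, TNNI3, DNAAF3, SYT5 and PTPRH on chr19:55132698-55209501, with log2 fold changes of 2.99, 3.19, 2.10, 1.52 and 1.56. It holds a pair of troponin genes of muscle fibres beside a synaptotagmin and a receptor phosphatase. A run of 3, picked after its gene names and values were seen, was the mucin cluster MUC2, MUC5AC and MUC5B on chr11:1074874-1262172, where MUC5AC, the gastric surface mucin, went from 0.561 ± 0.21 to 3.89 ± 0.508 CPM. The other long run, on chromosome X, held MAGED4B and MAGED4, near-identical copies between which the estimated counts may be split. Genes of high GC lie together in the genome, and their part in this sharing was not tested.

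Of the genes tested 9 had no count in any day 0 library. They entered only through their day 3 counts, so their direction follows from the entry rule and is given as a description. ARHGEF34P, a pseudogene, reached 1.06, 1.05 and 0.985 CPM, which was at least 26.5-fold above the floor of 3 counts over the group. MYOD1, the master regulator of skeletal muscle, reached 0.476, 0.526 and 0.642 CPM, at least 13.9-fold above that floor. YAP1, the effector of the Hippo pathway, reached 0.55, 0.362 and 0.728 CPM (at least 13.6-fold), and NGFR, the p75 neurotrophin receptor of basal epithelium and neural crest, 0.623, 0.395 and 0.428 CPM (at least 12.3-fold). The others were TUBA3C, a testis tubulin, MAGED4, JAM3, a junctional adhesion molecule, NLRP7 and PNMA8B. Day 3 levels of the 9 genes lay at or below 1.25 CPM, and no gene tested was without counts in all 3 day 3 libraries. Genes with some day 0 counts, but under 10 in each library, also entered only through day 3. WT1, NKX3-2, SOX2, CACNA1H, ROBO3 and EZHIP were among them. Their direction follows from the entry rule too, and the list counts of rises include such genes.

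Many genes of the extracellular matrix rose, and no fall was called in 4 of its 5 lists. Of 24 collagen genes 14 rose, of 21 laminin and integrin genes 12, of 31 matrix glycoproteins and proteoglycans 23 and of 21 matrix proteases and inhibitors 16. Median log2 fold changes were 0.80, 0.77, 0.79 and 0.85, against 0.00 over all genes. Day 0 replicate 2 and the GC and length trend moved each of these counts by at most 1 gene. With 1 library left out the lowest counts were 11, 11, 17 and 11. Between 5 and 10 tested members of each list were not called.

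COL6A1, a chain of the beaded-filament collagen VI, went from 0.16, 0.0836 and 0.508 CPM to 9.93, 9.34 and 8.26 CPM, 18 pooled counts against 748 and a ratio of 39.3 (exact 95% interval 24.7 to 66.7). LAMC1, the laminin gamma chain of most basement membranes, went from 10 pooled counts to 194, a ratio of 18.4 (9.77 to 38.9). Among genes already in use, COL15A1, a basement membrane collagen, rose from 77.3 ± 7.05 to 126 ± 5.04 CPM. ITGB5, an integrin that binds vitronectin, was at 16.4, 16.4 and 17.5 CPM on day 0 and at 50.3, 50.9 and 48.4 CPM on day 3 (log2 fold change 1.57 ± 0.071 SE, edgeR adjusted p = 5.33e-05). The day 3 libraries stood near 50 CPM with little spread.

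LTBP4, which stores latent TGF-beta in the matrix, was at 18, 16 and 18.4 CPM and then at 54.3, 50.8 and 51.9 CPM. GPC1, a heparan sulfate proteoglycan, rose from 12.7 ± 1.61 to 34.0 ± 0.997 CPM and the membrane protease MMP17 from 2.71 ± 0.716 to 10.5 ± 0.98 CPM. LOX, the enzyme that cross-links collagen, rose from 1.93 ± 0.541 to 5.19 ± 0.169 CPM. The wider list of collagen-modifying enzymes moved less, with 6 of 16 higher, 1 lower and a median of 0.26. Of 10 fibroblast markers checked for the presence of such cells, LUM, THY1 and POSTN had no count in any library, and the summed level of the 10 ran from 54.4 to 59.0 CPM on day 0 and from 76.8 to 82.3 CPM on day 3, most of it PDGFRA at 55.9 ± 2.03 and 73.8 ± 3.37 CPM. The 3 of these markers called higher were PDGFRA, COL1A1 and PDGFRB.

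Axon guidance and cell contact genes followed. Of 21 semaphorins, plexins and neuropilins 15 rose and 1 fell, of 18 ephrins and Eph receptors 9 rose and 1 fell, and of 22 netrin, slit and other guidance genes 15 rose and none fell. SEMA6B, a transmembrane semaphorin, was at 17.8, 11.6 and 17.3 CPM on day 0, lowest in replicate 2, and at 44.6, 44.0 and 46.4 CPM on day 3. EPHB2, a receptor for B-type ephrins, rose from 13.4 ± 2.18 to 34.8 ± 1.38 CPM, and RTN4RL2, a Nogo receptor homologue, from 0.525 ± 0.162 to 6.42 ± 0.0746 CPM. ROBO3, a receptor of the slit system, went from 5 pooled counts to 162, a ratio of 30.7 (exact 95% interval 12.9 to 95.7).

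Among cadherins and FAT genes 14 of 25 rose, with a range of 8 to 16 when 1 library was left out, and 1 fell. CDH3, the P-cadherin of basal epithelia, was at 5.26, 5.77 and 6.09 CPM on day 0 and at 24.2, 22 and 22.8 CPM on day 3 (log2 fold change 2.01 ± 0.094 SE, edgeR adjusted p = 5.9e-05). The giant cadherin FAT1 went from 12 pooled counts to 496, a ratio of 39.1 (22.2 to 76.2). Tight junction genes moved less as a list, with 8 of 24 higher (range 5 to 9), none lower and a median of 0.09. TJP3, a junctional scaffold, rose from 19.3 ± 1.46 to 42.0 ± 0.487 CPM and CLDN4, a claudin of glandular epithelia, from 39.5 ± 2.44 to 57.8 ± 3.92 CPM.

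Many ion channel and synaptic vesicle genes rose, while regulators of neuroendocrine identity had a median log2 fold change of 0.03. Of 21 calcium and sodium channel genes 11 rose and 1 fell, of 42 potassium channel genes 20 rose and 3 fell (range 0 to 3), and of 45 synaptic and neurosecretory genes 27 rose and 2 fell. All 3 T-type calcium channels were among them. CACNA1H went from 7 pooled counts to 477, a ratio of 64.5 (exact 95% interval 31.1 to 161), CACNA1G from 1.39 ± 0.2 to 7.53 ± 0.5 CPM and CACNA1I from 1.57, 2.30 and 2.22 CPM to 15.4, 13.8 and 15 CPM.

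SCN4B, an auxiliary subunit of sodium channels, was at 8.70, 9.78 and 11.3 CPM on day 0 and at 35.8, 38.0 and 38.7 CPM on day 3. SV2B, a synaptic vesicle glycoprotein, rose from 9.08 ± 0.275 to 27.6 ± 1.44 CPM and RAB3B, a GTPase of regulated secretion, from 5.04 ± 0.688 to 18 ± 0.813 CPM. NEFL, the neurofilament light chain, rose from 213 ± 33.5 to 338 ± 25.4 CPM. KCNT1, a sodium-activated potassium channel, rose by 1.89 on the log2 scale.

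Of 21 neuroendocrine regulators tested 8 rose (38.1%, against 20% of all genes) and 2 fell, with a median of 0.03. The rises ranged from 3, without day 3 replicate 2 or 3, to 9, without day 0 replicate 2. NEUROD1 at 3.01 ± 0.568 and 2.67 ± 0.369 CPM and INSM1 at 4.33 ± 0.181 and 4 ± 0.514 CPM overlapped between the days, and REST, the repressor of neuronal genes, was at 52.4 ± 1.7 and 48.4 ± 2 CPM; none of these was called. NCAM1, the neural adhesion molecule used as a clinical marker, rose from 6.15 ± 0.749 to 15.1 ± 0.403 CPM, and MYT1, a zinc finger factor of neurons and islets, from 1.34 ± 0.296 to 5.26 ± 0.575 CPM. As for the label, CHGA had no count in any library, while the 10 neuroendocrine markers summed to 599 to 695 CPM on day 0 and 696 to 710 CPM on day 3. Most of this was ENO2, named after its values were seen, at 345 to 391 and then 425 to 432 CPM. SYP, also named after its values were seen, was at 4.85 to 6.71 and then 4.54 to 4.83 CPM. Of the 8 markers tested 2 were called higher and 1 lower.

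The line expressed POU2F3, the master regulator of tuft cells, at 285, 272 and 282 CPM on day 0 and at 286, 288 and 278 CPM on day 3, with no difference detected (log2 fold change 0.02 ± 0.063 SE, edgeR adjusted p = 0.823). Of 24 tuft cell genes 6 rose and 3 fell, near the shares of all genes. The rises ranged from 3 to 11 and the falls from 0 to 3 with 1 library left out. The 6 tuft markers summed to 679 to 709 CPM on day 0 and 745 to 765 CPM on day 3. SH2D6, an adaptor protein, rose from 9.5 ± 0.742 to 20.3 ± 1.65 CPM, while IRAG2 fell from 497 ± 42.5 to 393 ± 11.9 CPM.

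TP63 lay outside the genes tested, with 3, 1 and 1 counts on day 0 and 23, 7 and 23 on day 3. Pooled, that was a ratio of 10.0 (exact 95% interval 4.04 to 32.2, counting error only). SOX2, its partner in squamous epithelium, went from 4 pooled counts to 53, a ratio of 12.5 (4.62 to 47.7). Both stayed under 1 CPM in all 6 libraries. CDKN2A had no count in any of them. The 5 squamous markers summed to 1.09 to 1.28 CPM on day 0 and 0.592 to 1.8 CPM on day 3.

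Of 29 basal squamous genes 14 rose and 4 fell, the falls ranging from 0 to 6 with 1 library left out. The falls were KRT5, the basal keratin, at 1.06, 0.92 and 1.11 CPM on day 0 and 0.366, 0.263 and 0.599 CPM on day 3, and TFAP2A, S100A2 and ZNF750, all 4 named here after their values were seen. KRT5 was the 1 squamous marker with enough counts to be tested. Besides CDH3 the rises included TRIM29, at 48.6 ± 1.48 and 86.0 ± 2.67 CPM, ITGB4, the hemidesmosome integrin, at 4.31 ± 0.663 and 12.2 ± 1.45 CPM, and PAX9, a factor of the esophageal lining, at 0.432 ± 0.131 and 3.46 ± 0.372 CPM. Genes of squamous differentiation split, with 7 of 24 higher and 4 lower. PPL, the cornified envelope protein periplakin, was at 9.40, 6.40 and 9.37 CPM and then at 27.5, 26.4 and 26.9 CPM. SPRR1A and SPRR1B, envelope precursors, fell, SPRR1B from 1.83, 3.01 and 2.31 CPM to 0.586, 0.592 and 0.728 CPM.

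Developmental transcription factors outside the HOX clusters were a rising list, with 40 of 74 higher and 3 lower and a median of 0.49. Some of the rises, NKX3-2 and WT1 among them, entered only through their day 3 counts. NKX3-2, a skeletal and gut mesenchyme factor, went from 6 pooled counts to 100, a ratio of 15.8 (exact 95% interval 7 to 44). WT1, of kidney and mesothelium, went from 1 count to 62, a ratio of 58.7 (10.2 to 2360). HOX genes are textbook Polycomb targets, but the 34 of 39 that met the entry rule barely moved. Of these 2 rose and 3 fell, with a median of 0.00, and the rises ranged from 1 to 8 with 1 library left out. HOXC12 rose from 14.6 ± 0.79 to 19.9 ± 1.34 CPM and HOXA4 fell from 19.1 ± 2.47 to 13.7 ± 0.136 CPM. HOXB9 and HOXB8, untested and chosen here after their values were seen, went from 0 and 4 pooled counts to 36 and 28. That was at least 11.4-fold above the floor of 3 counts for HOXB9 and a ratio of 6.63 (2.32 to 26) for HOXB8. HOXD12 and HOXA13, also with few counts, had ratios of 1.51 (0.763 to 3.11) and 1.16 (0.675 to 2).

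Rises outnumbered falls on each list of signalling genes, by more than over all genes tested, with 20% higher and 16.3% lower. Of 41 WNT pathway genes 21 rose and 2 fell, of 52 TGF-beta and BMP genes 22 rose and 3 fell, of 52 Notch, Hedgehog and YAP genes 26 rose and 1 fell, and of 48 receptor tyrosine kinases and growth factors 21 rose and 2 fell. With 1 library left out falls ranged from 1 to 5 on the WNT list, from 2 to 7 on the TGF-beta list and from 0 to 10 on the Notch, Hedgehog and YAP list, whose rises ranged from 17 to 30. That list had 8 falls after the GC and length trend was removed. TGFB1, the founding ligand of its family, was at 36.3, 41.7 and 38.3 CPM on day 0 and at 70, 75 and 83.3 CPM on day 3. PDGFB, a growth factor for mesenchymal cells, rose from 5.22 ± 0.782 to 16.1 ± 1.15 CPM.

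NKD1, a feedback inhibitor of WNT signalling, went from 21 pooled counts to 310, a ratio of 14 (exact 95% interval 8.98 to 22.9), and GREM1, a secreted BMP antagonist, from 29 to 323, a ratio of 10.5 (7.2 to 16). HES2, a Notch-family repressor, rose from 2.01 ± 0.142 to 10.8 ± 1.34 CPM. HHIP, the decoy receptor for Hedgehog ligands, rose from 38.0 ± 1.83 to 61.1 ± 1.57 CPM and TEAD2, a partner of YAP1, from 33.5 ± 3.68 to 59.7 ± 1.23 CPM. SMAD1, which carries BMP signals, fell from 53.6 ± 1.09 to 38.9 ± 1.51 CPM, a call lost after the GC and length trend was removed.

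Rises among genes already abundant were fewer and smaller. Among the largest gains in CPM were those of AHNAK, SREBF2, PHGDH, EEF1A2, MT-ATP8, PSAP, NEFL, SUN2, AARS1, AGRN and FKBP8. EEF1A2, the elongation factor form of nerve and muscle, rose from 180, 177 and 187 CPM to 318, 344 and 357 CPM (log2 fold change 0.91 ± 0.073 SE, edgeR adjusted p = 0.000171). The libraries of a day lay close together and the days were well apart.

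AHNAK, a giant membrane scaffold, was at 302, 144 and 365 CPM on day 0 and at 623, 612 and 578 CPM on day 3, and AGRN, the synapse-organising proteoglycan agrin, at 175, 98.1 and 165 CPM and then at 258, 256 and 243 CPM. Both were lowest in day 0 replicate 2. NDRG1, a hypoxia and differentiation gene, rose from 51.1 ± 10.8 to 115 ± 9.25 CPM and CNN2, an actin-binding calponin, from 70.0 ± 5.44 to 123 ± 3.68 CPM. The actin and contractile list as a whole had 15 of 52 higher and 2 lower, with ranges of 10 to 26 and 1 to 5 when 1 library was left out.

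Part of the abundant group belonged to the amino acid response that the factor ATF4 drives. Of 37 such genes 19 rose and 1 fell, with a median of 0.27. ASNS, asparagine synthetase, was at 91.9, 122 and 96.8 CPM on day 0 and at 188, 164 and 190 CPM on day 3. PHGDH, the first enzyme of serine synthesis, was at 219, 226 and 224 CPM and then at 388, 382 and 409 CPM (log2 fold change 0.82 ± 0.066 SE, edgeR adjusted p = 0.000178). In ASNS replicate 2 was the high one on day 0, and for neither gene did the days overlap.

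PCK2, a mitochondrial gluconeogenic enzyme, rose from 10.5 ± 1.09 to 29.6 ± 1.26 CPM, TRIB3, a pseudokinase that restrains ATF4, from 34.4 ± 1.95 to 81.1 ± 8.39 CPM, and the neutral amino acid transporter SLC1A4 from 103 ± 1.03 to 180 ± 12.3 CPM. SESN2, a stress-induced leucine sensor, rose from 10.7 ± 1.1 to 24.0 ± 2.05 CPM. ATF4 itself, chosen here after its values were seen, was at 443 ± 63.9 and 515 ± 21.5 CPM with overlapping libraries and was not called (edgeR adjusted p = 0.151). The tRNA synthetases, some of which belong to this response, split: 4 of 20 rose, including AARS1 from 294 ± 21.5 to 403 ± 10.6 CPM, and 8 fell, including IARS1 from 393 ± 11.6 to 317 ± 4.13 CPM, and 7 rose and 4 fell with library size as the only scaling. With 1 library left out the rises ranged from 3 to 7 and the falls from 1 to 9, and after the GC and length trend was removed 6 rose and 6 fell.

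The promoters of ASNS and CHAC1, a glutathione-degrading enzyme chosen here after its values were seen, are shown because they hold the ATF4-type composite element TGATGNAAN, which was searched on both strands. Each is the 250 bases before the first start listed by RefSeq (GRCh38.p14), 5′ to 3′ on the gene's strand, with the element in capitals. The ASNS stretch lies within the span of longer annotated ASNS transcripts.
ASNS, chr7:97872409-97872658, reverse strand: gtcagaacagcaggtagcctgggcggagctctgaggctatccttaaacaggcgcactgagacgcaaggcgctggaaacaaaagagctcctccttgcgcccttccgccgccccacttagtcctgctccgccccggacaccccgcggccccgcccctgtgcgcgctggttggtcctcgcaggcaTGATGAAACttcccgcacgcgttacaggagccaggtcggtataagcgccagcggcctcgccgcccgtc
CHAC1, chr15:40953221-40953470, forward strand: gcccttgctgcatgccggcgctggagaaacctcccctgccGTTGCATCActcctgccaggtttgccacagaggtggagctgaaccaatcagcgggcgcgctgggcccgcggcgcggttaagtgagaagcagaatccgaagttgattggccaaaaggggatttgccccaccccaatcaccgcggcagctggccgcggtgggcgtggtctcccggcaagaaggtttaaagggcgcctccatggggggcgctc
Counts of this and later elements cover a longer window, from 250 bases before the start to 50 after it. The element was in 4 of the 16 risers of the list that had a promoter in the table (ASNS, ATF3, CHAC1 and SLC3A2). It was in 2 of the list's 14 other tested members, in 1.66% of promoters of tested genes and in 3.67% of all 27305 promoters. CHAC1 was at 1.03, 1.05 and 1.15 CPM on day 0 and at 3.96, 2.63 and 1.93 CPM on day 3. A match is a run of letters and not evidence of binding.

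Of 41 cholesterol and fatty acid synthesis genes 17 rose and 2 fell. The rises ranged from 11 to 29 with 1 library left out and numbered 29 after the GC and length trend was removed. SREBF2, the factor that drives the pathway, was at 810, 607 and 817 CPM and then at 1013, 1008 and 1024 CPM, and MVD, an enzyme of the mevalonate route, rose from 85.6 ± 6.75 to 140 ± 4.15 CPM. Of 58 lysosome and autophagy genes 19 rose and 6 fell, the falls ranging from 2 to 12. The rises included PSAP, the saposin precursor, from 334 ± 6.3 to 482 ± 11.9 CPM, GRN, progranulin, from 36.2 ± 0.427 to 52.5 ± 0.994 CPM, and GABARAPL1, of the autophagosome, from 13.2 ± 1.58 to 23.9 ± 1.11 CPM. Of 36 glycolysis and hypoxia genes 12 rose (range 9 to 23) and 2 fell. Among the rises was EPAS1, the hypoxia factor HIF-2 alpha, from 16.2 ± 1.12 to 38.4 ± 0.672 CPM.

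**Figure D4:**
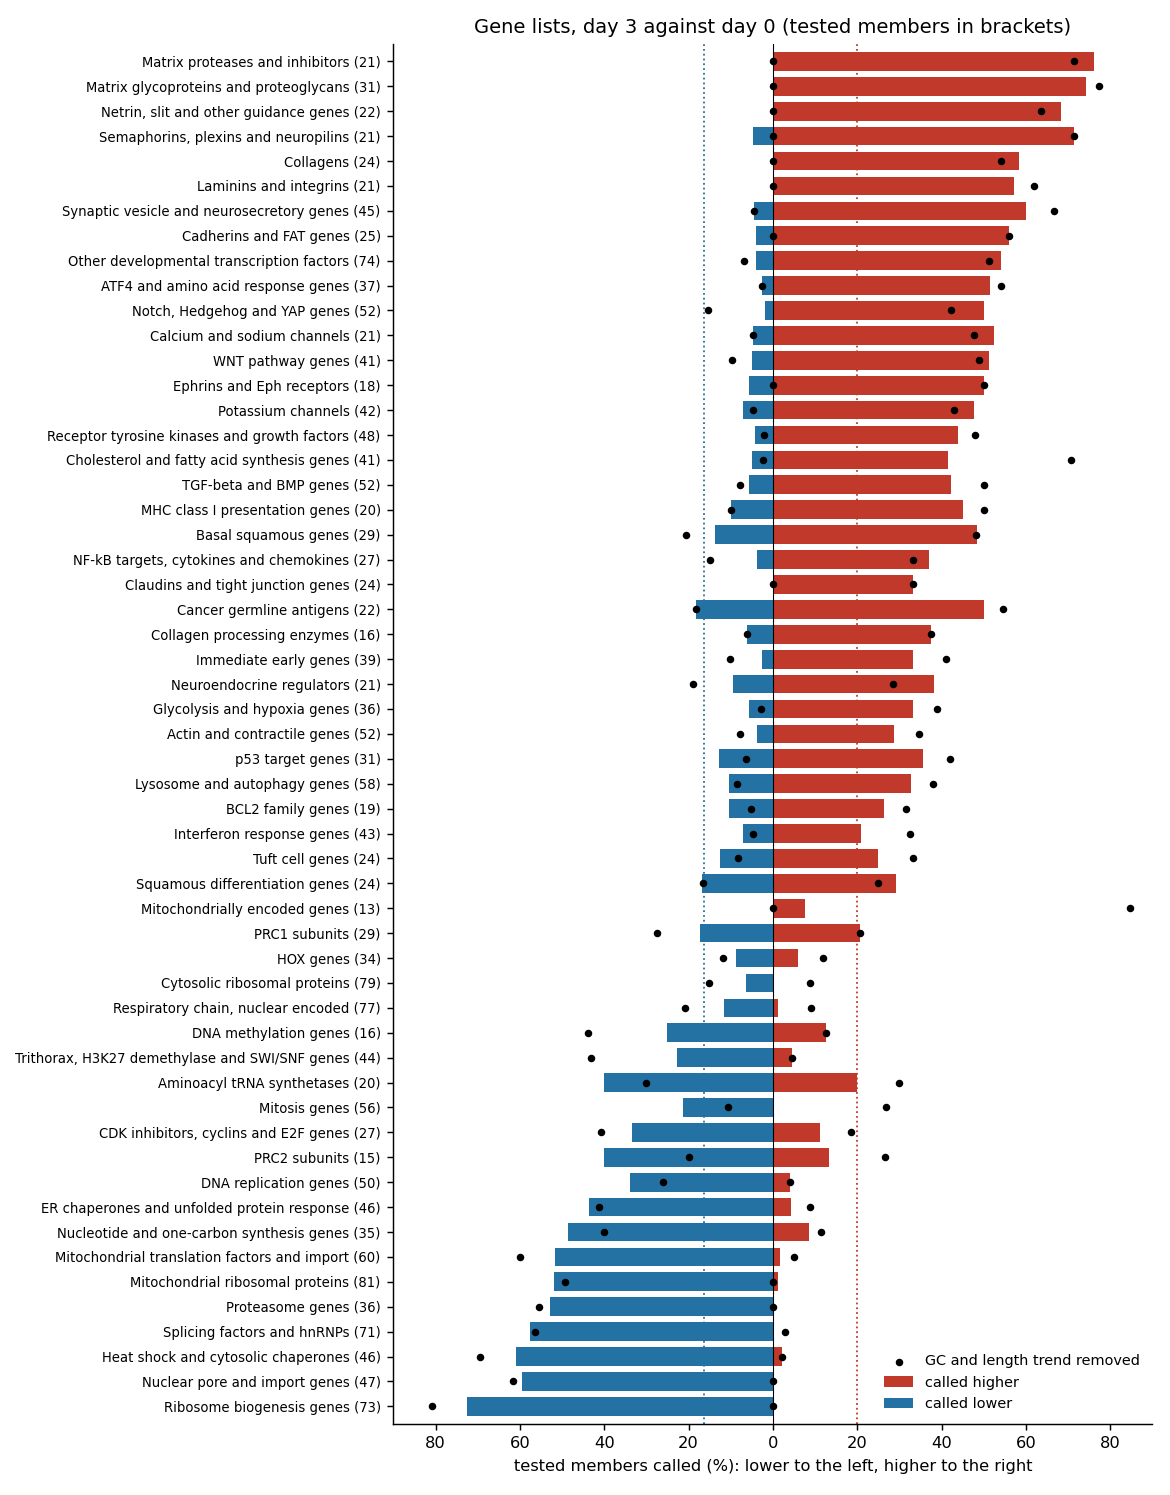
Percentage of the tested members of each gene list called higher (red, to the right) or lower (blue, to the left); dotted lines mark the shares over all genes, 20% and 16.3%. Black points give the same after the GC and length trend was removed; matrix and guidance lists stand at the top and ribosome biogenesis, with 72.6% lower, at the bottom.

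The falls gathered in the machinery of growth, above all in ribosome assembly. Of 73 ribosome biogenesis genes 53 fell and none rose, with a median log2 fold change of -0.47. The falls numbered 62 without day 0 replicate 2, 45 without day 3 replicate 1 and 59 after the GC and length trend was removed. DDX21, a nucleolar helicase, was at 637, 587 and 602 CPM on day 0 and at 397, 401 and 374 CPM on day 3 (log2 fold change -0.64 ± 0.071 SE, edgeR adjusted p = 0.000642). RIOK1, a kinase of small-subunit assembly, was at 65.1, 65.9 and 63.7 CPM and then at 42.8, 41.5 and 41.6 CPM, and GTPBP4, a GTPase of the large subunit, went from 278 ± 8.3 to 186 ± 2.64 CPM. For all 3 genes the libraries of a day lay close together and the days were well apart.

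NCL, the abundant nucleolar protein nucleolin, fell from 1712 ± 64.5 to 1218 ± 52.6 CPM, and GPATCH4, another nucleolar protein, from 103 ± 4.45 to 58.0 ± 2.18 CPM. The E-box CACGTG, a letter string bound by MYC-family factors, was in 15 of the 43 promoters of called falls on this list. It was in 6 of 17 promoters of the list's other members, in 10.0% of promoters of tested genes and in 7.43% of all promoters. MYC itself was at 199, 244 and 205 CPM on day 0 and at 236, 234 and 243 CPM on day 3, overlapping and not called (log2 fold change 0.14, edgeR adjusted p = 0.273). Without day 0 replicate 2, its highest day 0 library, MYC was called higher (log2 fold change 0.233, adjusted p = 0.000462), and also with library size as the only scaling (0.219, adjusted p = 0.038). The structural proteins of the cytosolic ribosome did not share this fall: 5 of 79 were lower (range 2 to 11) and none higher, but 28 were higher without day 0 replicate 2, where the median log2 fold change went from -0.11 to 0.06. After the GC and length trend was removed 7 were higher and 12 lower. RPS10, which fell from 7.35, 10.6 and 7.25 CPM to 2.53, 2.56 and 3.12 CPM, overlaps a read-through gene, so its counts are uncertain.

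Chaperones fell next. Of 46 heat shock and cytosolic chaperone genes 28 fell and 1 rose, with a median of -0.38. HSP90AA1, the inducible HSP90, was at 2946, 3306 and 2840 CPM on day 0 and at 1762, 1862 and 1794 CPM on day 3, the largest loss of CPM of any called gene. HSPH1, a nucleotide exchange factor for HSP70, went from 367, 413 and 347 CPM to 203, 219 and 199 CPM (log2 fold change -0.86 ± 0.087 SE, edgeR adjusted p = 0.000427). DNAJA1, an HSP70 co-chaperone, went from 794 ± 77.9 to 460 ± 24.9 CPM. Day 0 replicate 2 was the highest library for all 3, and each stayed called without it. Of 46 ER chaperone genes 20 fell (range 8 to 25) and 2 rose (range 1 to 6). The falls included HSPA5, the ER HSP70, from 356 ± 20.2 to 247 ± 8.62 CPM and the lectin chaperone CANX from 514 ± 19.2 to 357 ± 2.31 CPM.

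The promoters of HSPA8, the constitutive cytosolic HSP70, and CHORDC1, an HSP90 co-chaperone, are shown because they hold the heat shock element, searched on both strands as 3 alternating units of GAA and its reverse complement TTC, with 2 bases between units. Each is again the 250 bases before RefSeq's first listed start (GRCh38.p14), 5′ to 3′ on the gene's strand, with matches, which overlap one another in CHORDC1, in capitals.
HSPA8, chr11:123062137-123062386, reverse strand: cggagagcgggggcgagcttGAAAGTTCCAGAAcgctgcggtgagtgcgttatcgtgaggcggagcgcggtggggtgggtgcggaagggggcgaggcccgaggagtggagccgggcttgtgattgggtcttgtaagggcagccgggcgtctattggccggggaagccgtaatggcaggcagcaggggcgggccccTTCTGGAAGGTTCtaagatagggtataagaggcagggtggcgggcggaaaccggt
CHORDC1, chr11:90223050-90223299, reverse strand: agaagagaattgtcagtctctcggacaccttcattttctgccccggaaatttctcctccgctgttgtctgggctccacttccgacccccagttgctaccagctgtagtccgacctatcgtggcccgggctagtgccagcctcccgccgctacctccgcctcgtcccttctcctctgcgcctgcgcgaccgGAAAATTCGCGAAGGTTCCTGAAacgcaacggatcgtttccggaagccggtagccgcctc
HSPA8 fell from 2394, 2684 and 2509 CPM to 1605, 1743 and 1760 CPM, and CHORDC1 from 222, 260 and 208 CPM to 142, 142 and 135 CPM. In the window that runs to 50 bases after the start, the element was in 4 of the 26 promoters of chaperone genes that fell. These were CHORDC1, DNAJA1, DNAJB6 and HSPA8. It was in 1 of the 14 of other tested chaperones, in 0.305% of promoters of tested genes and in 0.487% of all promoters. Most chaperone promoters in the table thus lack these exact letters, which says nothing of binding.

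Falls were also frequent in mitochondrial protein synthesis and import. Of 81 mitochondrial ribosomal protein genes 42 fell and 1 rose, with ranges of 15 to 49 and 0 to 6 when 1 library was left out. Of 60 genes of mitochondrial translation and import 31 fell and 1 rose, the rises ranging from 0 to 4. HSPD1, the mitochondrial chaperonin, was at 1120, 1258 and 1154 CPM on day 0 and at 611, 653 and 607 CPM on day 3. GFM1, the mitochondrial elongation factor G, was at 165, 180 and 178 CPM and then at 93.7, 93.1 and 94.1 CPM (log2 fold change -0.90 ± 0.066 SE, edgeR adjusted p = 0.000132). LRPPRC, which stabilises mitochondrial mRNAs, fell from 459 ± 14.2 to 311 ± 1.32 CPM.

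The respiratory chain gave no stable direction. Of 77 nuclear-encoded subunits 9 fell and 1 rose, with ranges of 2 to 16 and 0 to 20 when 1 library was left out. Without day 0 replicate 2 the median went from -0.14 to 0.04, and after the GC and length trend was removed 16 fell and 7 rose. NDUFS1, the largest subunit of complex I, fell from 178 ± 4.11 to 132 ± 3.58 CPM. Of the 13 protein-coding genes of the mitochondrial genome 1 was called higher, MT-ATP8 at 318, 374 and 385 CPM and then at 471, 442 and 617 CPM, and 11 were called higher both without day 0 replicate 2 and after the GC and length trend was removed. The shortness of MT-ATP8 and its overlap with MT-ATP6 make its counts uncertain.

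Genes that handle RNA and move cargo into the nucleus also fell. Of 71 splicing factor and hnRNP genes 41 fell (range 20 to 56) and none rose, and of 47 nuclear pore and import genes 28 fell and none rose. HNRNPA3, an RNA-packaging protein, was at 834, 929 and 838 CPM on day 0 and at 509, 549 and 535 CPM on day 3. HNRNPA2B1, a close relative, fell from 3073 ± 180 to 2156 ± 91.9 CPM, and SF3A3, of the U2 particle, from 202 ± 7.8 to 135 ± 6.14 CPM. IPO5, an importin for ribosomal proteins and histones, fell from 379 ± 10.5 to 262 ± 5.35 CPM and NUP50, of the pore basket, from 312 ± 6.07 to 224 ± 4.63 CPM. Of 36 proteasome genes 19 fell (range 7 to 26) and none rose, among them PSMD12, of the regulatory lid, from 99.2 ± 13.5 to 64.3 ± 2.97 CPM.

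Of 35 genes of nucleotide and one-carbon synthesis 17 fell (range 9 to 21) and 3 rose. AMD1, the decarboxylase that commits to polyamine synthesis, fell from 276 ± 26.6 to 171 ± 2.37 CPM, and MTRR, which reactivates methionine synthase, from 94.6 ± 4.3 to 62.0 ± 2.26 CPM. Of 50 DNA replication genes 17 fell and 2 rose, including RRM2, which makes deoxynucleotides, from 327, 375 and 336 CPM to 222, 242 and 236 CPM, and CDC6, which loads the replicative helicase, from 129 ± 7.38 to 88.3 ± 5.36 CPM. With 1 library left out the replication falls ranged from 8 to 30 and the rises from 0 to 6.

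Mitosis genes gave no stable direction. Of 56 tested 12 fell and none rose, with a median of -0.07, yet 15 rose and 6 fell after the GC and length trend was removed, and rises ranged from 0 to 10 and falls from 1 to 20 with 1 library left out. Mitosis genes have a median transcript GC of 42.9%, against 48.5% over all genes tested. NCAPG, a condensin subunit, fell from 204 ± 20.5 to 146 ± 3.65 CPM and was called lower in each of these fits. Among regulators of the cycle 3 of 27 rose (range 3 to 6) and 9 fell (range 4 to 11). CDKN1A (p21) was at 2.82, 3.85 and 2.68 CPM on day 0 and at 8.91, 9.47 and 9.20 CPM on day 3, and CDKN1C (p57) at 2.57, 2.76 and 2.35 CPM and then at 7.84, 8.19 and 10.1 CPM (edgeR adjusted p = 0.00037 and 0.000198). CCND1, cyclin D1, rose from 28.7 ± 0.943 to 40 ± 0.35 CPM, while its partner CDK6 fell from 274 ± 19.9 to 196 ± 7.89 CPM.

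Among genes averaging 5 CPM or more, the 12 largest falls by fold were mostly in weakly expressed genes and unnamed loci. HSPD1, at 1177 ± 71.9 CPM on day 0, was also one of them. RGS21, a regulator of taste receptor signalling, was at 6.71, 8.20 and 7.48 CPM on day 0 and at 2.02, 2.43 and 3.81 CPM on day 3, and NRCAM, a neuronal adhesion molecule, at 13.3, 11.8 and 13.2 CPM and then at 5.57, 6.21 and 5.31 CPM. PLN, the calcium pump inhibitor phospholamban, fell from 21.4 ± 4.82 to 9.31 ± 0.722 CPM. The 12 also held AC068631.2, AC006064.6, FP565260.6 and the read-through gene RPL17-C18orf32, whose counts could be shared with overlapping genes. ZMPSTE24, the protease that matures lamin A, was not one of the 12 but was among the largest falls from at least 50 CPM. It fell from 56.2 ± 4.05 to 31.8 ± 0.616 CPM.

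Stress and immune lists held more rises than falls, as did all genes tested, with 20% higher and 16.3% lower. Of 31 p53 target genes 11 rose and 4 fell, with BBC3, the death-promoting BCL2-family protein PUMA, at 3.11, 3.35 and 3.23 CPM on day 0 and at 11.3, 10.3 and 10.4 CPM on day 3. Of the 19 BCL2-family genes 5 rose (range 4 to 10) and 2 fell, near the shares of all genes. The falls included the survival gene MCL1 from 163 ± 5.76 to 125 ± 4.14 CPM. Of 27 NF-kB targets, cytokines and chemokines 10 rose and 1 fell, and 4 fell after the GC and length trend was removed. The rises included LIF, a cytokine of the IL-6 family, from 0.684 ± 0.188 to 4.33 ± 0.668 CPM and CXCL16, a membrane-bound chemokine, from 9.67 ± 0.709 to 22.3 ± 1.29 CPM. Immediate early genes had 13 of 39 higher (range 6 to 23) and 1 lower, JUN, from 37.9 ± 1.34 to 29.8 ± 1.08 CPM, and 4 were lower after the GC and length trend was removed.

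Antigen presentation by MHC class I had 9 of 20 genes higher and 2 lower. HLA-B, a classical heavy chain, rose from 93.2, 110 and 97.9 CPM to 151, 147 and 146 CPM, and HLA-E, a ligand of natural killer cell receptors, from 17.9 ± 0.918 to 30.7 ± 0.9 CPM. HLA genes share near-identical stretches, so how reads were split among them makes each value uncertain. Interferon response genes had a share of rises near that of all genes, with 9 of 43 higher (range 6 to 16) and 3 lower, and 14 were higher after the GC and length trend was removed. IFITM1, which blocks viral entry, rose from 1.68 ± 0.614 to 6.39 ± 0.184 CPM. Cancer germline antigens split, with 11 of 22 higher, such as MAGEC1 from 1.34 ± 0.0417 to 7.09 ± 0.166 CPM, and 4 lower (range 1 to 4), such as MAGEA6 from 188 ± 12.7 to 146 ± 4.93 CPM. MAGE genes have near-identical copies, so their split is uncertain.

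Markers of other cells were low or absent, apart from LYZ and PDGFRA. Of 13 leukocyte markers CD3D, CD2, MS4A1 and TYROBP had no count, and nearly all of the summed 481 to 634 CPM on day 0 and 343 to 359 CPM on day 3 was LYZ, lysozyme, which fell from 476, 627 and 499 CPM to 342, 335 and 352 CPM. ITGAM, an integrin of myeloid cells, rose from 0.422 ± 0.162 to 2.23 ± 0.326 CPM. The 10 endothelial markers summed to 3.19 to 4.52 CPM on day 0 and to 6.89 to 8.1 CPM on day 3, with VWF, TEK and ESAM called higher and CLDN5 at 0. Muscle and glia markers summed to 3.64 to 4.36 and 3.72 to 4.27 CPM, with none of 5 tested called and CKM and SOX10 at 0. The 5 epithelial markers summed to 1630 to 1860 CPM on day 0 and 1490 to 1590 CPM on day 3. The part of any other cells in these results was not tested.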

How the data were processed

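RNA was measured in 3 libraries a day. The authors deposited one table of estimated counts per gene symbol for poly-A selected libraries; bcl2fastq 2.19, kallisto 0.44.0, DESeq2 and the builds GRCh38, GRCm38 and hg38 are named in the submitters' processing notes without roles, and the annotation and the rounding to whole numbers are not given in the sources used here. Genes with at least 10 counts in 3 or more of the 6 libraries were tested in R 4.3.3 with edgeR 4.0.16 (glmQLFit and glmQLFTest, TMM scaling, a mean per day), adjusted by Benjamini-Hochberg and checked on simulated data. Depth, 21638874 to 31235055 counts, sets the floor of 3 counts. Pooled ratios carry exact 95% intervals for counting error only. The 59 gene lists and the members were chosen with earlier results of these data known, and lists are described by counts and medians without a set test. Named genes are 16 fixed ones, the 12 largest rises and falls by fold (mean of at least 5 CPM, no overlap) and by CPM, up to 10 called genes at 0 on day 0, up to 5 members a list with the lowest p, or 2 where none was called, and the 10 largest rises and falls from at least 50 CPM; others are said to be chosen after their values were seen. Some genes the rule names are not reported here. Alternatives were 2 other scalings, removal of mitochondrial and the 20 most abundant genes, 3 filters, DESeq2 1.42.0, limma 3.58.1 voom, all 9 libraries, a replicate block, a threshold of 0.01, a test against 1.2-fold, each library left out, and removal of the trend on GC and length of the longest GENCODE 29 transcript. Sequences and positions are RefSeq's (GRCh38.p14); 76.3% of the genes tested had a promoter there, under the 80% needed, so a comparison of promoter composition is void.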

Additional observations from a re-analysis of the deposited data

How the results depend on the processing

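The labels do not say whether the replicate numbers pair the libraries. Same-numbered libraries deviated from their day means with correlations of 0.0842, -0.0495 and -0.16, and differently numbered ones with -0.136 to 0.187. With 3 libraries a day such values cannot decide whether the numbers pair. A fit with the replicate block gave 2485 higher and 1863 lower calls, 1075 and 45 of them at least 2-fold. EZH2 was at -0.208 in that fit (edgeR adjusted p = 0.0799). Leaving out each library in turn gave 2028 to 4087 higher and 1099 to 3822 lower calls, 973 to 1193 rises and 35 to 71 falls of at least 2-fold, and EZH2 between -0.221 and -0.191; the fewest falls came without day 3 replicate 3 (1099), replicate 2 (1167) or replicate 1 (1175), and the most without day 0 replicate 2. An adjusted p under 0.01 left 1818 higher and 965 lower calls, 21 of the falls at least 2-fold, and a test against a 1.2-fold change left 1818 and 577. A mean of at least 5 CPM, which tests fewer genes, left 295 rises and 8 falls of at least 2-fold. EZH2 missed the threshold with library size as the only scaling (-0.129), with no filter (-0.193), at 5 CPM or more (-0.147), at the 0.01 threshold (-0.208), against 1.2-fold (-0.208) and after removal of the GC and length trend (-0.005); the cause was not tested. All other counts of calls stayed within 1.5 times, DESeq2 giving 2854 higher and 2721 lower. No named gene reversed in any of 19 alternatives. Of the 323 called named genes 261 kept their call in every alternative that tested them, and all 323 without day 0 replicate 2. Weakly expressed genes were not tested in all of them: COL6A1 was in 18 and YAP1 in 17. Most named genes were picked by their p or change in the main fit, so these counts do not measure stability. Over all genes 99.1% of the higher and 99.4% of the lower calls were kept without day 0 replicate 2. Genes under 1 CPM rest on few counts.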

Other observations

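Calls differed by chromosome as placed by RefSeq. On chromosome 19, 30.8% of 1074 tested genes were called higher and 5.03% lower, and on chromosome 22 the shares were 32.4% and 7.89% of 355 genes. On chromosome 5 they were 12.5% and 22.7% of 617 genes. The X chromosome held rises of at least 2-fold in 59 of 504 genes (11.7%), close to the 129 of 1074 on chromosome 19, with 20.6% of its genes called higher in all. These shares are descriptions without a test, from the fit in which the GC and length trend was not removed. The part of transcript GC in them was not tested.

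By class of gene, 21.1% of 13432 protein-coding genes were called higher and 17.1% lower, against 6.4% and 6.0% of 250 pseudogenes and 10.2% and 7.18% of 362 transcribed pseudogenes.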
